A study of Mus musculus with 9 samples.

Results

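The 36 genes described here encode the parts of the contact between a cell and its basement membrane: 13 integrin alpha chains, 6 integrin beta chains, 9 laminin chains, the nidogens and perlecan (3 genes), and 5 proteins that bind integrins inside the cell. They were taken as a list of gene symbols by function, with no threshold on their values, although earlier results of these data were known when the list was made. Of the 36, 35 had a probe set that carried a single gene symbol on the array (Itga11 had none), out of 18193 genes so represented. Where a gene had several such probe sets, the brightest on average across the 9 arrays was used. A gene was tested if its highest group mean reached 6.58, the median log2 signal of the whole table. This left 31 of the 36 members and 12559 genes in all. Itga2, Itgb4, Lama3 and Lamc3 lay under that line.

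Expression was measured on Affymetrix arrays in 3 groups of 3 mouse samples, 1 array per sample. Mouse embryonic fibroblasts (MEF), connective tissue cells grown from C57BL/6 embryos at embryonic day 13.5, were the starting cells. Chemically induced cardiomyocyte-like cells (CiCM) were MEF that had been given 10 µM CHIR99021 (a GSK3 inhibitor), 10 µM RepSox (a TGF-beta receptor kinase inhibitor), 50 µM Forskolin (which raises cAMP), 0.5 mM VPA (a histone deacetylase inhibitor), 5 µM Parnate (an inhibitor of monoamine oxidases and of the demethylase LSD1) and 1 µM TTNPB (a retinoic acid receptor agonist). Only clusters that were beating were picked, on day 24, so a CiCM sample holds selected clusters and not the whole culture. Cardiomyocytes (CM) had been isolated from mouse hearts, and no genotype, strain or age was used for them here. No MEF culture kept without the compounds until day 24 is among the 9 samples, so treatment, time in culture and picking of clusters cannot be told apart.

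Basement membranes are thin sheets of matrix that line epithelia and wrap each muscle fibre, fat cell and vessel. Laminins, trimers of an alpha, a beta and a gamma chain, polymerise on the cell surface, and nidogens and the proteoglycan perlecan link that polymer to a network of type IV collagen. Integrins, pairs of an alpha and a beta chain, bind laminin, collagen or fibronectin outside the cell and connect inside it to actin through adaptors such as integrin-linked kinase. In striated muscle these contacts sit at costameres, where they tie the contractile apparatus to the surrounding matrix.

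Promoter sequences are shown for 4 members that differed between MEF and CiCM and that stand for the main roles below: Lamb3 and Itgb6, which were higher in CiCM, and Itga5 and Itgb8, which were lower. Each line holds the 250 bases before an annotated transcription start, from RefSeq on mouse build GRCm38.p6, written 5′ to 3′ on the gene's strand. Capitals mark matches to an E-box (CANNTG, the core bound by basic helix-loop-helix factors such as MyoD and Twist1).
Lamb3, chr1:193301744-193301993, plus strand: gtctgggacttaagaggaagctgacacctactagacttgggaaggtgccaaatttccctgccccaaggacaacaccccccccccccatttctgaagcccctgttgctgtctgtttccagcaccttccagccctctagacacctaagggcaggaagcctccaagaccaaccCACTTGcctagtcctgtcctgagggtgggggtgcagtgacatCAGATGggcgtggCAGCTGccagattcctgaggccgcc
Itgb6, chr2:60722604-60722853, minus strand: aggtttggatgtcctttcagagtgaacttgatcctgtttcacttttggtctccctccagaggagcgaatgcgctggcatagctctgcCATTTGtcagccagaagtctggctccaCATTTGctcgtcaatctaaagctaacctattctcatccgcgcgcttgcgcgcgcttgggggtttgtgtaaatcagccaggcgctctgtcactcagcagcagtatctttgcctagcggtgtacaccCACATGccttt
Itga5, chr15:103366792-103367041, minus strand: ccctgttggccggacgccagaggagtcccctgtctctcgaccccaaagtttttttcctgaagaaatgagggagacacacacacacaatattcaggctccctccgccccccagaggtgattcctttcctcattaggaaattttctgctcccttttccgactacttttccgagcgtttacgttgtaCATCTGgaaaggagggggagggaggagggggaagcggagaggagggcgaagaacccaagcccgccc
Itgb8, chr12:119238277-119238526, minus strand: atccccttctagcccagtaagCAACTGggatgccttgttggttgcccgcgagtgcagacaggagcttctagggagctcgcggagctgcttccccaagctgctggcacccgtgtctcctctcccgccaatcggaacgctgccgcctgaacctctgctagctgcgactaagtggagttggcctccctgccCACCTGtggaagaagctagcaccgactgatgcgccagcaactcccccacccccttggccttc
The Lamb3 window held 3 E-boxes, of which the one nearest the start, 25 bases before it, read CAGCTG. The Itgb6 window held 3 and the Itgb8 window 2, while that of Itga5 held 1, 66 bases before the start. An E-box was present in 66.2% of all 32851 windows of this length and CAGCTG in 13.0%, so its presence sets none of these genes apart. On both strands, none of the 4 windows matched AP-1 (TGANTCA, in 6.75% of windows), TEAD (GGAATG, in 12.6%), the MEF2 site (in 2.92%) or the CArG box (in 1.47%). The GC box (GGGCGG, in 32.7%) was matched at 2 places in the Itga5 window, 149 and 6 bases before the start, and is not capitalised. Lamb3 and Itgb6 each have a further annotated start, whose windows held a TEAD match (Lamb3, 167 bases before it) and a CArG box (Itgb6, 50 bases before it). Of the 36 members 24 had an entry in the promoter table, among them 7 of the 11 called between CiCM and MEF. Itga6, Itga7, Lims2 and Itgb1bp2 were the others of those 11.

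All values are log2 signals of the deposited table, so a difference of 1 corresponds to a 2-fold change. Differences were tested with limma in 1 fit of the 9 arrays, with Benjamini-Hochberg adjustment over the 12559 genes. A gene is called higher or lower, and said to rise or fall, only where the adjusted p was under 0.05 and the difference at least 1. The smallest p of an exact permutation test with 3 arrays in each group is 0.1, and the calls for single genes therefore depend on the estimate of spread that limma shares between genes. The 3 samples of a group are labelled as biological replicates. With 3 arrays per group, the number of arrays limits how precise these values are.

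The table had been scaled so that the trimmed mean signal is equal on every array, and the scaling bears on the balance of directions. Of all genes called between CM and MEF, 50.4% were higher in CM as deposited, 35.1% after centring each array on its median and 22.0% after levelling on the hybridisation controls. Centring shifted the median of all genes by -0.37 in CM against MEF, and levelling by -0.80. Between CiCM and CM, 46.5% of the called genes were higher in CiCM, against 62.4% and 74.5%, with shifts of 0.31 and 0.58. Between CiCM and MEF the share was 48.6%, against 45.3% and 35.4%, and levelling shifted the median by -0.23. Differences with CM below are therefore relative to a scale that is less certain than that between CiCM and MEF.

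Marker genes showed which cells the samples could hold. The summed linear signal of 10 cardiac muscle markers was 348 to 435 on the MEF arrays, 896 to 1416 on the CiCM arrays and 226523 to 248729 on the CM arrays. Of these 10, CiCM exceeded MEF in 5 (11.6% of all tested genes did), among them Myl3 (4.68), Myh6 (4.53), Tnni3 (2.72) and Tbx20 (1.71). All 10 were lower in CiCM than in CM (19.0% of all tested genes were). The first count was 3 with 32 added to the linear signal and 2 with the mean over probe sets. Means of the 10 in CiCM ran from 2.52 (Kcnip2) to 8.61 (Myl3), and those of Tnni3 (5.77) and Tbx20 (5.33) were under the median of the table. Not called between CiCM and MEF were Nppa (1.95), Nppb (-0.50), Nkx2-5 (0.16), Ryr2 (0.13) and Kcnip2 (-0.15). Of 12 skeletal muscle markers the sum was 250 to 277 in MEF, 146307 to 162433 in CiCM and 9647 to 21124 in CM. Endothelial markers (14 genes) summed to 2826 to 3040 in MEF, 875 to 1459 in CiCM and 24784 to 27249 in CM. Macrophage markers (12 genes) summed to 21765 to 22407 in MEF, 2383 to 3520 in CiCM and 19832 to 23040 in CM. Sums for 12 fibroblast markers were 97746 to 99017, 92749 to 95769 and 29055 to 44120 in the same order, and for 10 mural cell markers 16522 to 17470, 11613 to 12530 and 34335 to 45958. Epithelial markers (12 genes) stayed between 804 and 2089 on all 9 arrays, and 6 Schwann cell markers between 1023 and 1776. Vwf, Myh8 and Myh6 were listed at 0 on 1 MEF array each. In such bulk samples fewer cells of a type and less RNA per cell cannot be told apart, and the part of these markers in the results below was not tested except where a value is given. Among the CM samples, replicate 1 stood apart in the atrial gene Myl7, at 15.05 against 9.25 and 5.98, so calls that its omission ended are named.

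**Figure D1:**
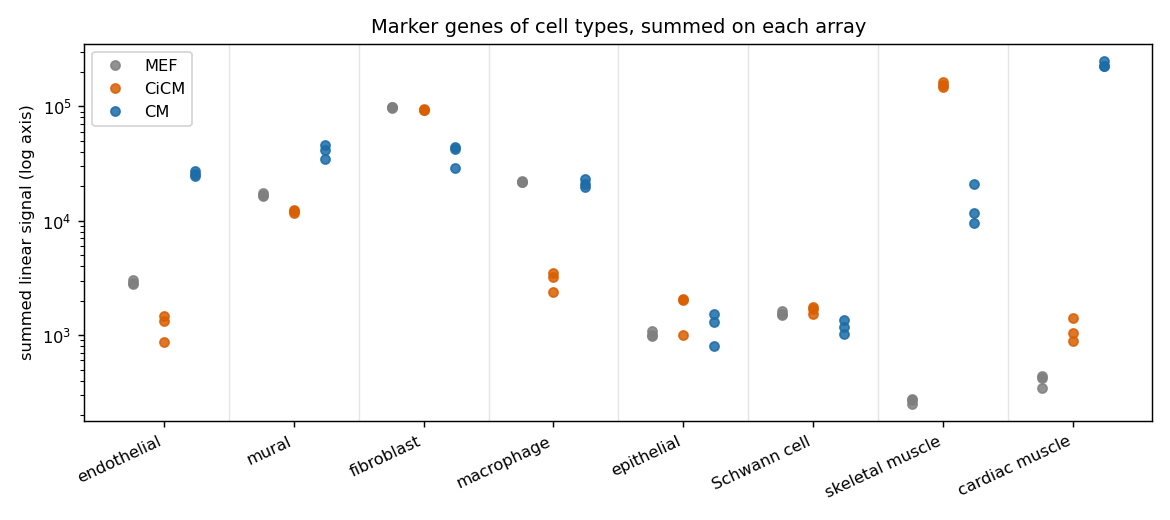
Summed linear signal (log axis) of marker genes of 8 cell types on each of the 9 arrays, 1 point per array, coloured by group. Skeletal muscle markers lie highest in CiCM, cardiac and endothelial markers highest in CM, and macrophage markers of CiCM lie below those of the other two groups.

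Across the set, cells that had gone through chemical induction carried more of 6 members and less of 5 than MEF. Higher in CiCM were the laminin chains Lamb3 and Lama5, the integrin chains Itga7, Itga9 and Itgb6, and Itgb1bp2, the muscle-restricted integrin partner melusin. Lower were the integrin chains Itga1, Itga5, Itga6 and Itgb8, and Lims2, an adaptor of integrin-linked kinase. The 6 higher members were 19.4% of the 31 tested, where 11.6% of all tested genes were called higher, and the 5 lower were 16.1%, where 12.2% of all genes were. With the adjusted p alone, 10 members were higher (all genes 24.2%) and 13 lower (all genes 27.8%). The median difference was -0.20 over the tested members and -0.03 over all tested genes. Arrays of CiCM and MEF did not overlap for 24 members (77.4%), and for 68.5% of all tested genes.

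CM differed from MEF in more of the members, with 10 called higher (all genes 22.1%) and 9 lower (all genes 21.8%). Their arrays did not overlap for 25 members, a share of 80.6% where all tested genes gave 75.2%. Against CM, CiCM were higher in 6 members (all genes 16.5%) and lower in 8 (all genes 19.0%). Here the arrays did not overlap for 20 members, a share of 64.5% against 67.9% of all tested genes. These 3 comparisons share samples. The median difference of members was 0.00 in CM against MEF and 0.26 in CiCM against CM, and that of all tested genes was -0.03 in each. Members that were under the median in 1 group or more, such as Lamb3, Itgb1bp2, Itgb6 and Itgb7, passed the filter through the groups where they were high, so these counts describe the tested members and not the set of 36.

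**Figure D2:**
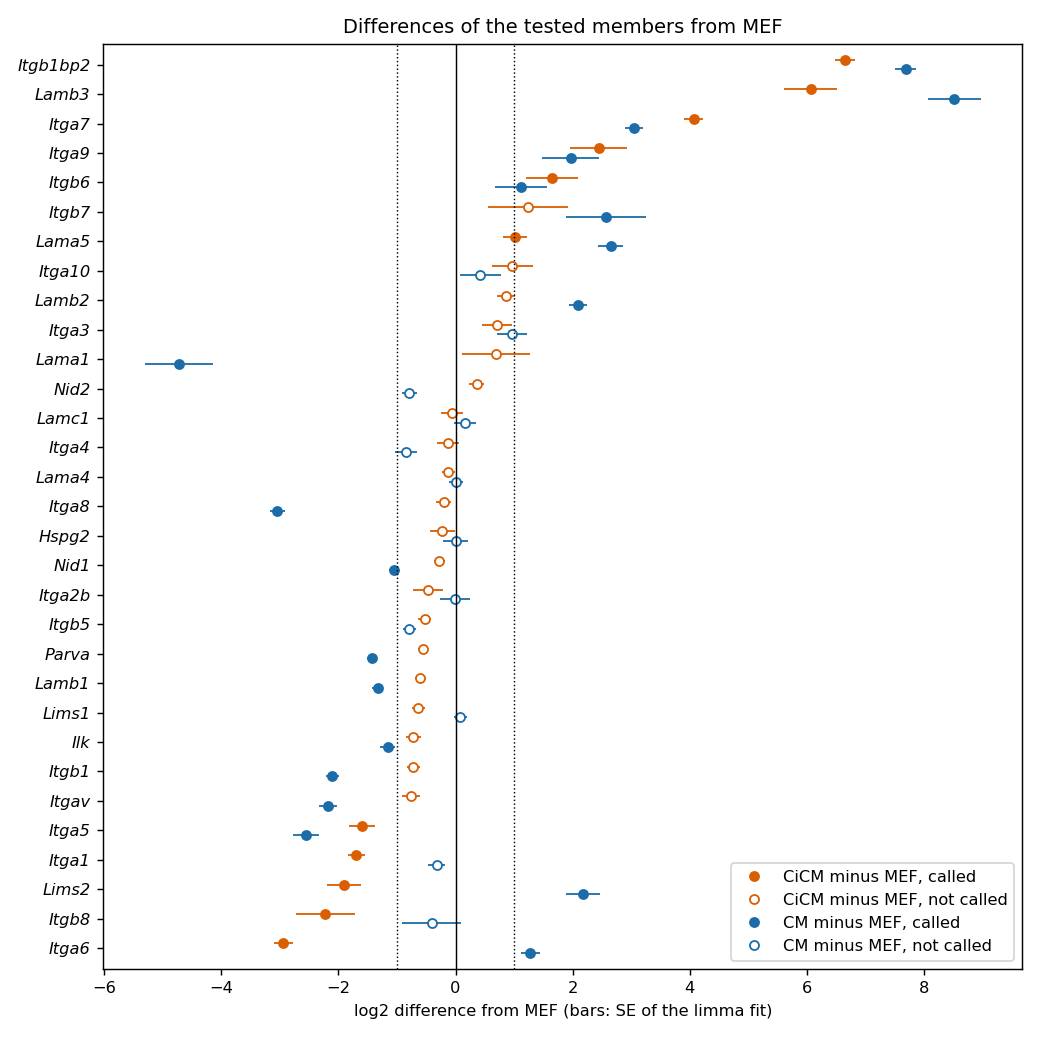
Difference in log2 signal from MEF for the 31 tested members, with CiCM in orange and CM in blue. Bars are standard errors of the limma fit, filled points are called and dotted lines mark a difference of 1. Itgb1bp2 and Lamb3 stand highest in both, while Itga6 and Lims2 lie to the left in CiCM and to the right in CM.

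Among the laminin chains, Lamb3 and Lama5 rose in CiCM over MEF, and both were higher again in CM. Of 7 laminin chains tested, CiCM were higher than MEF in 2 and lower in none, CM were higher than MEF in 3 and lower in 2, and CiCM were higher than CM in 1 and lower in 3. Among all tested genes the shares higher and lower were 11.6% and 12.2% in CiCM against MEF, 22.1% and 21.8% in CM against MEF, and 16.5% and 19.0% in CiCM against CM. With 3 to 11 tested genes in each role, here and below, the counts by role are descriptions only. Lamb3 (Entrez Gene 16780) encodes a beta chain best known from epithelial basement membranes. It read 1.25, 1.31 and 2.88 on the MEF arrays, 7.96, 7.46 and 8.22 on the CiCM arrays, and 10.05, 10.31 and 10.62 on the CM arrays. All MEF arrays were far under the median of the table, all CiCM arrays above it, and all CM arrays above those of CiCM. The difference between CiCM and MEF was 6.07 ± 0.45 (SE, limma adjusted p = 1.8e-06), that between CM and MEF 8.51 and that between CiCM and CM -2.45 (limma adjusted p = 0.000784). With 32 added to the linear signal, which damps low values, CiCM exceeded MEF in Lamb3 by 2.90 and CM exceeded MEF by 5.19.

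Lama3, the usual alpha partner of that chain, was under the filter and averaged 5.24 in MEF, 4.57 in CiCM and 6.46 in CM. The epithelial marker genes Cldn4 and Cdh1 rose in CiCM over MEF, by 2.58 and 2.48 (28.6% of 7 tested, all genes 11.6%). The other 5 tested of that list were not called. Epcam, an epithelial surface protein, averaged 7.41 in MEF, 7.71 in CiCM and 6.47 in CM. The epithelial sum was 1007, 2089 and 2044 on the CiCM arrays and 804 to 1527 on the CM arrays. Whether epithelial cells were a source of Lamb3 was not tested.

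Lama5 (Entrez Gene 16776), the alpha chain of many mature basement membranes, read 8.02, 7.86 and 8.04 in MEF, 8.81, 8.96 and 9.20 in CiCM, and 10.09, 10.96 and 10.83 in CM. The 3 groups did not overlap and stood in that order. CiCM exceeded MEF by 1.01 ± 0.21 (limma adjusted p = 0.00227), CM exceeded MEF by 2.65 and CiCM lay under CM by 1.63. The call of Lama5 in CiCM against MEF stood at the minimum difference. It was lost at 0.93 with 32 added, at 1.00 after quantile normalization, at 0.96 after centring, at 0.78 after levelling on hybridisation controls, at 0.55 with the mean over probe sets, at 0.96 without MEF replicate 2 and at 0.91 without CiCM replicate 3.

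Lamb2, a beta chain found at the neuromuscular junction and around muscle fibres and vessels, averaged 9.08 ± 0.13 in MEF, 9.95 ± 0.31 in CiCM and 11.18 ± 0.16 in CM (SD, n = 3). CM exceeded MEF by 2.09 (limma adjusted p = 5.77e-07), while the difference of CiCM from MEF, 0.87, missed the minimum (1.02 and called without CiCM replicate 2). CiCM lay under CM in Lamb2 by 1.23, a call lost after centring (-0.92) and levelling (-0.65). Its sister chain Lamb1, more common in embryonic tissue, went the other way, from 12.92 in MEF to 12.32 in CiCM and 11.60 in CM. Lamb1 fell by 1.33 in CM (limma adjusted p = 3.32e-07), and its difference of -0.60 in CiCM was not called. The mean over the 4 probe sets of Lamb1 gave -1.18 in CiCM, which was called.

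Lama1, the alpha chain of the first embryonic basement membranes, read 7.07, 6.75 and 6.99 in MEF, 6.51, 8.08 and 8.31 in CiCM, and 2.22, 2.63 and 1.79 in CM. The CiCM arrays lay on both sides of those of MEF, and all CM arrays were far lower. CM fell by 4.73 against MEF (SE 0.58, limma adjusted p = 2.87e-05), and CiCM exceeded CM by 5.42 (limma adjusted p = 1.45e-05). The difference between CiCM and MEF was 0.69 (limma adjusted p = 0.34). Since Lama1 was near the floor in CM, the size depends on the scale, and with 32 added the difference of CM from MEF was -2.08.

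Lama4, an alpha chain of mesenchymal and endothelial basement membranes, was at 11.34 in MEF, 11.22 in CiCM and 11.35 in CM, with overlapping arrays in every pair of groups. Lamc1, the gamma chain of most laminins, was at 10.60, 10.54 and 10.76, again with overlap throughout. Neither was called in any comparison by the probe set used. The second probe set of Lama4 was dimmer, at 8.20, 6.73 and 7.01, which is lower than in MEF by differences of -1.47 in CiCM and -1.18 in CM. With the mean over probe sets Lama4 differed from MEF by -0.79 in CiCM (limma adjusted p = 0.00354) and by -0.59 in CM (limma adjusted p = 0.0117), both under the minimum. The second probe set of Lamc1 was also dimmer, at 8.28, 7.62 and 7.52. On it CiCM and CM lay under MEF without overlap, by differences of -0.66 and -0.76. Lamc3, a rarer gamma chain under the filter, had means of 4.72, 4.93 and 5.99, and its CiCM arrays spread from 1.94 to 6.87.

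**Figure D3:**
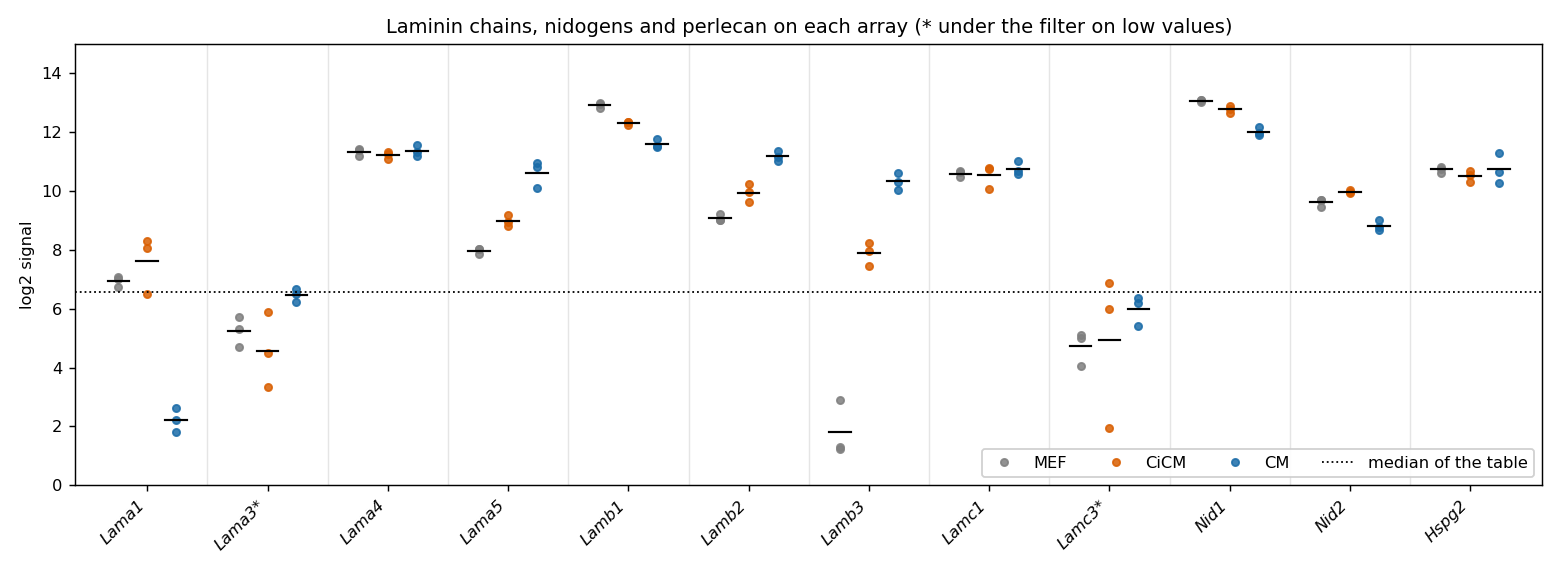
Log2 signal of the laminin chains, nidogens and perlecan on each array, 1 point per array and a bar at each group mean. The dotted line marks 6.58, the median of the table, and an asterisk marks genes under the filter. Lamb3, Lama5 and Lamb2 step up from MEF over CiCM to CM, Lamb1 and Nid1 step down, and Lama1 is low in CM alone.

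Of the 3 linkers of the laminin network, Nid1 was called lower in CM than in MEF and Nid2 higher in CiCM than in CM. Nid1, nidogen-1, read 13.09, 13.09 and 13.02 in MEF, 12.90, 12.80 and 12.67 in CiCM, and 11.91, 11.98 and 12.17 in CM. The groups did not overlap. Its fall by 1.05 in CM against MEF was called (limma adjusted p = 1.97e-06), and its difference of -0.28 in CiCM was not. The call in CM was lost without CM replicate 1 (-0.99) and with the mean over its 3 probe sets (-0.64), of which the dimmest ran the other way. Nid2, its paralog, read 9.69, 9.45 and 9.71 in MEF, 9.96, 9.95 and 10.02 in CiCM, and 8.79, 8.66 and 9.03 in CM. CiCM were the highest group without overlap, by 0.36 over MEF, which was under the minimum, and by 1.15 over CM, which was called (limma adjusted p = 1.73e-05). Perlecan (Hspg2) read 10.76, 10.83 and 10.63 in MEF, 10.30, 10.56 and 10.68 in CiCM, and 10.28, 10.65 and 11.30 in CM. All 3 groups overlapped in Hspg2, and it was not called.

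Integrin alpha chains moved in both directions in CiCM. Of 11 tested, CiCM were higher than MEF in 2 (18.2%, all genes 11.6%) and lower in 3 (27.3%, all genes 12.2%). CM were higher than MEF in 3 and lower in 3 (27.3% each, all genes 22.1% and 21.8%). CiCM were higher than CM in 3 (27.3%, all genes 16.5%) and lower in 2 (18.2%, all genes 19.0%). The laminin receptors among them split. Itga7 (Entrez Gene 16404), the laminin-binding chain of skeletal and cardiac muscle fibres, read 7.90, 7.74 and 7.54 in MEF, 11.62, 11.67 and 12.09 in CiCM, and 10.66, 10.65 and 11.00 in CM. Every CiCM array stood above every CM array, and every CM array above every MEF array. Itga7 was 16.7-fold higher in CiCM than in MEF, a difference of 4.06 ± 0.16 (limma adjusted p = 1.51e-08), and 8.24-fold higher in CM than in MEF. The excess of CiCM over CM, 1.02 (limma adjusted p = 0.000206), lay at the minimum difference. It was not called after quantile normalization (0.95), without CiCM replicate 3 (0.87), without CM replicate 1 (0.97) or without CM replicate 2 (0.96). All 12 skeletal muscle markers were likewise called higher in CiCM (median 9.82 over MEF), and their sum was also above that of CM.

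Itga6 (Entrez Gene 16403), which binds laminin together with the beta chain of Itgb1 or Itgb4, went the opposite way. It read 9.96, 10.00 and 9.95 in MEF, 7.10, 7.32 and 6.67 in CiCM, and 11.14, 11.15 and 11.45 in CM. CiCM formed the lowest group and CM the highest, with gaps of more than 1 unit between all groups. CiCM were 7.68-fold lower than MEF (-2.94 ± 0.16, limma adjusted p = 2.22e-07) and 18.6-fold lower than CM (-4.22, limma adjusted p = 1.38e-08). The rise of Itga6 in CM by 1.27 was lost after centring (0.91) and after levelling (0.47), while its fall in CiCM held at -3.00 and -3.17. A further probe set of Itga6 had means of 9.11, 6.19 and 10.78 in the same order of groups. Of the endothelial markers, 13 of 14 were called higher in CM than in MEF (92.9%, all genes 22.1%). All 14 were lower in CiCM than in CM (all genes 19.0%). Against MEF, 2 were called higher in CiCM (14.3%, all genes 11.6%), Vwf (5.65), von Willebrand factor, and Sox17 (3.04), an endothelial transcription factor. In the same comparison 3 were lower (21.4%, all genes 12.2%), among them Flt1 (-3.51), a VEGF receptor, and Emcn (-2.58), endomucin. Single endothelial markers thus did not all follow their sum, and their means in CiCM ran from 0.88 (Tie1) to 7.62 (Vwf). The summed mural markers were also lowest in CiCM and highest in CM, and the part of either list in Itga6 was not tested.

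Itga3, another laminin-binding chain, averaged 7.57 in MEF, 8.28 in CiCM and 8.53 in CM, differences of 0.71 and 0.96 from MEF that were under the minimum. Without CM replicate 2 the second was 1.29 and called, and without MEF replicate 1 it was 1.01 and called, while the mean over its probe sets gave -0.13. Itgb4, the beta chain of hemidesmosomes, read 5.13, 5.10 and 3.17 in MEF, 4.02, 3.50 and 2.84 in CiCM, and 5.63, 6.16 and 5.58 in CM. It stayed under the filter in all groups.

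Among collagen receptors, Itga1 (Entrez Gene 109700), which prefers type IV collagen, read 9.41, 9.46 and 9.22 in MEF, 7.74, 7.76 and 7.51 in CiCM, and 8.92, 9.13 and 9.07 in CM. CiCM were the lowest group by more than 1 unit and did not overlap with the others. The fall against MEF was 3.23-fold (-1.69 ± 0.14, limma adjusted p = 3.74e-06), and CiCM were 2.58-fold lower than CM, a call that levelling ended (-0.79). The second probe set of Itga1 gave means of 6.99, 5.97 and 9.16, so both probe sets placed CiCM lowest, but they differed on CM against MEF (-0.32 and 2.17). Itga10, a receptor of cartilage collagen, was at 6.04 in MEF, 7.01 in CiCM and 6.46 in CM. Its difference of 0.97 between CiCM and MEF (limma adjusted p = 0.0395) was under the minimum, and it was 1.24 and called without CiCM replicate 3. Itga2, a collagen receptor of epithelia and platelets, was under the filter, with means of 4.83, 6.15 and 4.65.

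The fibronectin receptor chain Itga5 (Entrez Gene 16402) was the one member called lower than MEF in both CiCM and CM, where 7.26% of all tested genes were. It read 9.17, 9.16 and 9.36 in MEF, 7.54, 7.28 and 8.08 in CiCM, and 6.49, 6.76 and 6.79 in CM. The groups stood apart in descending order. Itga5 fell 3.03-fold in CiCM (-1.60 ± 0.22, limma adjusted p = 0.000177) and 5.87-fold in CM (-2.55, limma adjusted p = 2.15e-06). The excess of CiCM over CM, 0.95, was under the minimum, but was called at 1.25 after quantile normalization, 1.26 after centring and 1.53 after levelling, and at 1.00 without CiCM replicate 1, 1.13 without CiCM replicate 2 and 1.01 without CM replicate 3. The other 3 probe sets of Itga5 gave -0.45, -1.41 and -0.069 for that difference, and the mean over probe sets gave -0.24 (limma adjusted p = 0.459), so its direction is not settled. With that mean, Itga5 was still called lower than MEF in CiCM (-1.67) and in CM (-1.43).

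Itgav, the alpha chain shared by receptors for vitronectin, fibronectin and latent TGF-beta, averaged 13.45 ± 0.06 in MEF, 12.69 ± 0.14 in CiCM and 11.27 ± 0.36 in CM (SD, n = 3). It fell 4.52-fold in CM against MEF and was 2.66-fold higher in CiCM than in CM, while the difference of -0.76 between CiCM and MEF was not called. With the mean over the 5 probe sets of Itgav, the excess of CiCM over CM (1.21) had a limma adjusted p of 0.0614. Itga8, a receptor chain for nephronectin and fibronectin, read 11.37, 11.31 and 11.35 in MEF, 11.22, 11.30 and 10.91 in CiCM, and 8.26, 8.14 and 8.50 in CM. CiCM lay just under MEF without overlap, and CM lay far below both. Itga8 was 8.25-fold lower in CM than in MEF (limma adjusted p = 9.07e-09) and 7.19-fold higher in CiCM than in CM (limma adjusted p = 3.31e-08), and the difference of CiCM from MEF was -0.20 (limma adjusted p = 0.215).

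Itga9 (Entrez Gene 104099), a receptor chain for tenascin-C and VCAM1, read 6.23, 6.95 and 6.45 in MEF, 8.82, 8.80 and 9.36 in CiCM, and 7.53, 8.16 and 9.85 in CM. All CiCM and CM arrays stood above those of MEF, and the CM arrays spread on both sides of CiCM. CiCM exceeded MEF by 2.45 ± 0.49 (limma adjusted p = 0.00176) and CM exceeded MEF by 1.97 (limma adjusted p = 0.00414). The other probe sets of Itga9 did not follow, with means of 7.13, 7.53 and 6.97 in one and 6.01, 5.71 and 3.97 in the other. With the mean over its probe sets, CiCM exceeded MEF by 0.85 (limma adjusted p = 0.119), and CM differed from MEF by -0.078 (limma adjusted p = 0.88). Without CM replicate 3, CiCM exceeded CM by 1.15, which was called.

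Itga4, which pairs with Itgb1 or Itgb7 and binds VCAM1 and fibronectin, had means of 8.53, 8.41 and 7.68. Its difference of -0.85 in CM was under the minimum as deposited and was called at -1.21 after centring and -1.65 after levelling. The mean over its 5 probe sets gave -1.44 in CiCM against MEF (limma adjusted p = 0.018). Itga2b, the platelet chain that binds fibrinogen, had overlapping arrays in all groups, with means of 8.03, 7.55 and 8.01, and was not called.

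**Figure D4:**
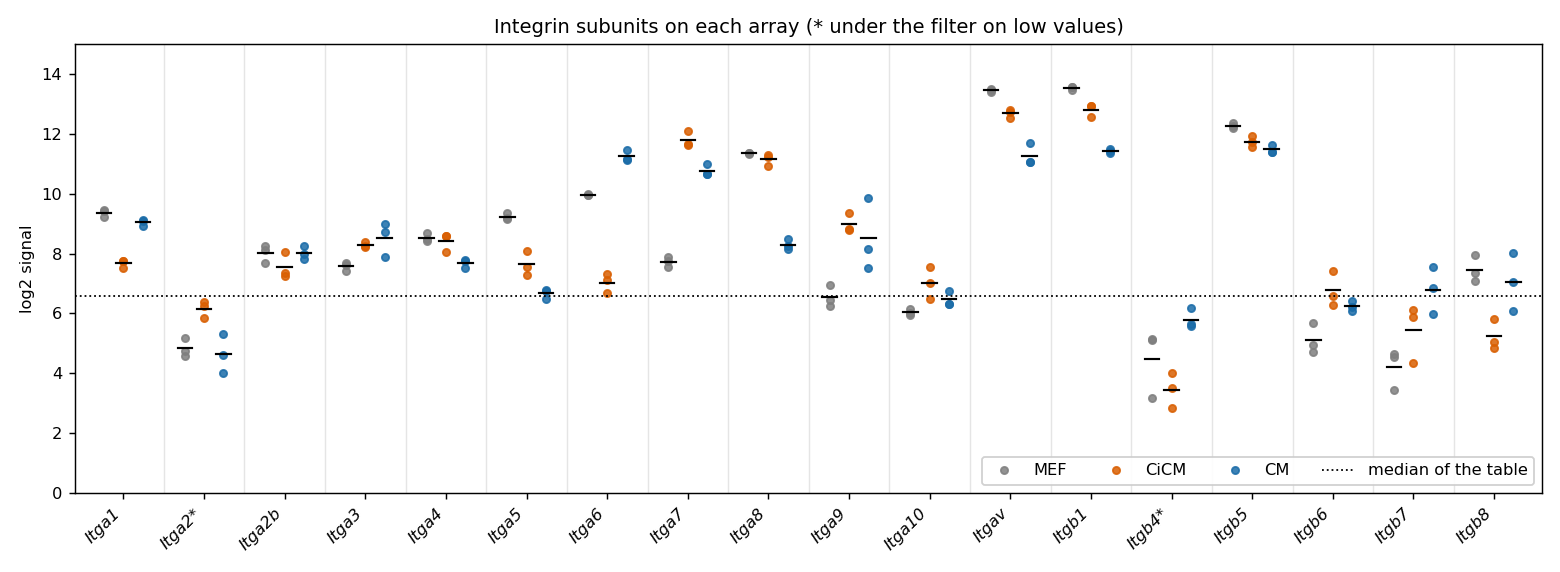
Log2 signal of the integrin alpha and beta chains on each array, 1 point per array and a bar at each group mean. The dotted line marks 6.58, the median of the table, and an asterisk marks genes under the filter. CiCM form the highest group for Itga7 and the lowest for Itga1 and Itga6, while Itga8, Itgav and Itgb1 are lowest in CM.

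Integrin beta chains divided between the shared chain Itgb1, which fell in CM by its brightest probe set, and the TGF-beta-activating chains Itgb6 and Itgb8, which went in opposite directions in CiCM. Of 5 beta chains tested, CiCM were higher than MEF in 1 and lower in 1 (20.0% each, all genes 11.6% and 12.2%). CM were higher than MEF in 2 (40.0%, all genes 22.1%) and lower in 1 (20.0%, all genes 21.8%). CiCM were higher than CM in 1 and lower in 1 (20.0% each, all genes 16.5% and 19.0%). Itgb1, which pairs with most alpha chains described above, averaged 13.53 ± 0.07 in MEF, 12.81 ± 0.22 in CiCM and 11.42 ± 0.06 in CM (SD, n = 3). It fell 4.30-fold in CM against MEF (limma adjusted p = 3.58e-08) and was 2.61-fold higher in CiCM than in CM (limma adjusted p = 1.39e-06). The difference of CiCM from MEF was -0.72, under the minimum. The second probe set of Itgb1 followed, with means of 13.22, 12.44 and 11.69. The third read 9.43, 9.59 and 9.90 in MEF, 12.23, 11.96 and 11.94 in CiCM, and 11.32, 11.05 and 11.17 in CM. On it CiCM exceeded MEF by 2.41 and CM exceeded MEF by 1.54, without overlap. With the mean over the 6 probe sets, the differences were 0.006 in CiCM against MEF, -0.49 in CM against MEF and 0.49 in CiCM against CM, and none was called.

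Itgb5, a partner of Itgav, was at 12.27 in MEF, 11.74 in CiCM and 11.48 in CM, and its differences of -0.53 and -0.79 from MEF were under the minimum. In CM it was called lower after centring (-1.16) and levelling (-1.59). Itgb6 (Entrez Gene 16420), an epithelial partner of Itgav that activates latent TGF-beta, read 4.94, 5.68 and 4.72 in MEF, 7.41, 6.29 and 6.60 in CiCM, and 6.08, 6.40 and 6.22 in CM. All CiCM and CM arrays stood above all MEF arrays. CiCM exceeded MEF by 1.65 ± 0.44 (limma adjusted p = 0.00983). The other probe set of Itgb6 read 3.04, 0.69 and 0.31 in MEF, 8.54, 8.15 and 8.70 in CiCM, and 6.87, 7.47 and 7.52 in CM, so both placed CiCM and CM above MEF. The call of Itgb6 in CM against MEF (1.12, limma adjusted p = 0.0434) was lost under the replicate block (limma adjusted p = 0.0698), under each scaling alternative, with 32 added (0.67), with no filter on low values (limma adjusted p = 0.0647), with the compared groups alone (limma adjusted p = 0.0593), and without MEF replicate 1 or 3, CiCM replicate 3 or any CM replicate.

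Itgb8 (Entrez Gene 320910), the other TGF-beta-activating partner of Itgav, read 7.07, 7.34 and 7.95 in MEF, 4.85, 5.04 and 5.80 in CiCM, and 8.01, 7.04 and 6.08 in CM. CiCM were the lowest group, and MEF and CM overlapped. Itgb8 was lower in CiCM than in MEF (-2.22 ± 0.50, limma adjusted p = 0.00368), by -1.57 with 32 added. It was also lower than in CM (-1.81, limma adjusted p = 0.00874), the latter with a limma adjusted p of 0.0691 after levelling. All CiCM arrays were under the median of the table, so no fold is given. Itgb7, a chain of lymphocyte integrins, read 4.66, 3.45 and 4.54 in MEF, 5.89, 6.13 and 4.35 in CiCM, and 7.54, 6.83 and 5.99 in CM. CM stood above MEF by 2.57 (limma adjusted p = 0.00607), a call lost after levelling (limma adjusted p = 0.0515). Its CiCM arrays overlapped with both other groups, and CiCM differed from MEF by 1.24 (limma adjusted p = 0.152), or by 1.80 and called without CiCM replicate 3. The macrophage markers were all 12 called lower in CiCM than in MEF (median -3.43). Against CM 9 of the 12 were lower in CiCM, and between CM and MEF 2 were called.

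**Figure D5:**
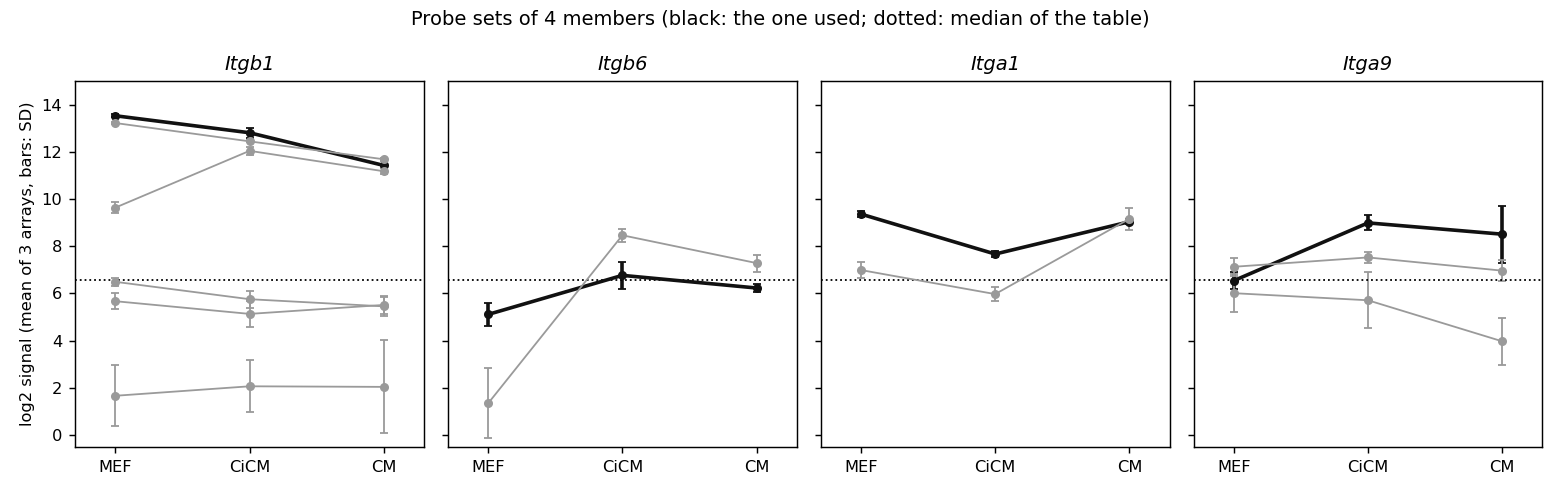
Mean log2 signal of each probe set of Itgb1, Itgb6, Itga1 and Itga9 in the 3 groups, with bars of 1 SD over 3 arrays. The black line is the probe set used. The third probe set of Itgb1 rises from MEF to CiCM where the brightest falls, both probe sets of Itga1 are lowest in CiCM, and the probe sets of Itga9 do not run together.

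Among the adaptors, melusin (Itgb1bp2) rose by 6.65 in CiCM over MEF, the largest difference among the probe sets used for members, and Lims2 fell by 1.90. Of 5 adaptors, 2 were higher and 2 lower in CM than in MEF (40.0% each, all genes 22.1% and 21.8%). None was higher (all genes 16.5%) and 2 were lower (40.0%, all genes 19.0%) in CiCM than in CM. Itgb1bp2 (Entrez Gene 26549), melusin, binds the tail of the beta-1 chain in striated muscle. It read 5.51, 5.13 and 5.80 in MEF, 12.19, 12.12 and 12.07 in CiCM, and 12.87, 13.25 and 13.38 in CM. The CiCM arrays lay close together, far above MEF and under all CM arrays. CiCM exceeded MEF by 6.65 ± 0.17 (limma adjusted p = 1.24e-09), and by 5.87 with 32 added. All MEF arrays were under the median of the table, so no fold is given. The deficit of CiCM against CM, -1.04, was called (limma adjusted p = 0.000396), but not after quantile normalization (-0.96), centring (-0.73) or levelling (-0.47), nor without CM replicate 2 (-0.999) or 3 (-0.93).

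Integrin-linked kinase (Ilk), a pseudokinase that holds the complex together, averaged 11.76 in MEF, 11.04 in CiCM and 10.60 in CM, and its fall by 1.16 in CM was called (limma adjusted p = 1.46e-05). Parva, alpha-parvin, which joins that complex to actin, read 11.57, 11.57 and 11.50 in MEF, 10.98, 11.02 and 10.97 in CiCM, and 10.24, 9.97 and 10.16 in CM. The groups did not overlap and descended in that order. Parva fell by 1.42 in CM (limma adjusted p = 1.42e-07), and its difference of -0.56 in CiCM was under the minimum. The second probe set of Parva gave -4.04 in CM and -1.02 in CiCM against MEF. Lims1, the broadly expressed PINCH protein of the complex, was at 11.81, 11.18 and 11.89, and CiCM lay under both other groups without overlap, by differences of -0.63 and -0.71 that were not called. The other probe sets of Lims1 differed in direction between CM and MEF, from -1.55 to 1.05.

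Lims2 (Entrez Gene 225341), the second PINCH protein, read 9.34, 8.68 and 9.28 in MEF, 7.41, 7.67 and 6.51 in CiCM, and 11.09, 11.22 and 11.51 in CM. As with Itga6, CiCM were the lowest group and CM the highest, with no overlap. Lims2 fell 3.74-fold in CiCM against MEF (-1.90 ± 0.29, limma adjusted p = 0.000283), rose 4.52-fold in CM against MEF (2.18, limma adjusted p = 5.03e-05) and was 16.9-fold lower in CiCM than in CM (-4.08, limma adjusted p = 7.07e-07). After levelling its differences from MEF were -2.13 in CiCM and 1.37 in CM, both still called. The summed endothelial markers were also lowest in CiCM, at 875 to 1459, and highest in CM. The mural sum had the same order, with CiCM at 11613 to 12530, and the macrophage sum was lowest in CiCM too. The part of these lists in Lims2 was not tested.

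Placed against both other groups at once, CiCM were called lowest for 4 members, Itga1, Itga6, Itgb8 and Lims2, which is 12.9% of the tested members where 4.03% of all tested genes were. After levelling on hybridisation controls only Itga6 and Lims2 remained, 2 members where 3.13% of all tested genes were. They were called highest for 1, Itga7, which is 3.23% where 3.96% of all tested genes were. Higher than MEF in both CiCM and CM were Itga7, Itga9, Itgb6, Lama5, Lamb3 and Itgb1bp2 (6 members, all genes 7.21%). Of these, Itga9 was called in neither comparison with the mean over probe sets. The call of Itgb6 in CM and that of Lama5 in CiCM were lost under several alternatives, as given above. Lamb3, Itgb1bp2, Itgb6 and Itga9 averaged 1.81, 5.48, 5.11 and 6.54 in MEF, under the median of the table. They passed the filter through the groups where they were high, so the share describes the tested members only. Itga6 and Lims2 were lower than MEF in CiCM and higher in CM, 2 members where 0.82% of all tested genes were. After centring and after levelling this held for Lims2 alone, since Itga6 was no longer called higher in CM. No member was higher in CiCM and lower in CM (all genes 0.629%). No comparison called Itga2b, Itga3, Itga4, Itga10, Itgb5, Lama4, Lamc1, Hspg2 and Lims1, which are 9 members, or 29.0%, where 44.1% of all tested genes were uncalled.

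Other genes of these contacts were read from 3 lists, whose shares stand beside those of all tested genes. Of 23 tested focal adhesion genes, CiCM were higher than MEF in 3 (13.0%, all genes 11.6%) and lower in 7 (30.4%, all genes 12.2%), with a median of -0.71 where that of all genes was -0.03. The share of higher genes was thus near that of all genes. The largest differences were in Csrp3 (8.39), a LIM protein of the Z-disc, Ldb3 (4.83), which anchors alpha-actinin there, Fermt3 (-3.29), the kindlin of blood cells, and Zyx (-2.21), zyxin of stress fibres. In CM 5 of the list were higher (21.7%, all genes 22.1%) and 11 lower than in MEF (47.8%, all genes 21.8%). There Csrp3 stood at 10.21, Ldb3 at 5.94, Actn1, a non-muscle alpha-actinin, at -3.78 and Csrp1, of smooth muscle, at -3.36. Between CiCM and CM 3 were higher (13.0%, all genes 16.5%) and 6 lower (26.1%, all genes 19.0%), and 10 higher and 4 lower after levelling.

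Another list held other basement membrane genes and some cell-surface genes, among them Dag1, Bcam and Sgcd. Of 21 tested, CiCM exceeded MEF in 7 (33.3%, all genes 11.6%) and lay under it in 3 (14.3%, all genes 12.2%). The median difference was 0.01. Of the higher genes, Frem2, Bcam, Fras1 and Sgcd averaged 4.06, 6.19, 6.02 and 5.43 in MEF, under the median of the table. They passed the filter through groups where they were high, so the share describes the tested genes only. The call of Sgcd was marginal (1.25, limma adjusted p = 0.0476). The largest differences were in Frem2 (5.70), an epithelial matrix protein of the Fraser complex, Npnt (4.24), nephronectin, a ligand of the integrin with the chain of Itga8, Bcam (3.73), a receptor for the chain of Lama5, and Smoc1 (-2.83), a matricellular calcium-binding protein. In CM 9 were higher than in MEF (42.9%, all genes 22.1%) and 6 lower (28.6%, all genes 21.8%), with Frem2 at 4.82, Bcam at 4.48, the type IV collagen chain Col4a4 at 2.75 and Egflam, pikachurin, at 2.54. Npnt was 6.57 higher in CiCM than in CM (limma adjusted p = 1.26e-09). In that comparison 4 of the list were higher (19.0%, all genes 16.5%) and 5 lower (23.8%, all genes 19.0%).

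The last list held integrin ligands of the interstitial matrix and some others, among them the cell-surface protein Vcam1 and the growth factor Tgfb1. Of 15 tested, CiCM were higher than MEF in none (all genes 11.6%) and lower in 7 (46.7%, all genes 12.2%), with a median of -0.94. The largest differences were in Ccn2 (-2.98), the connective tissue growth factor, Vcam1 (-2.12), a ligand of the integrins with the chains of Itga4 and Itga9, Thbs1 (-2.09), thrombospondin-1, and Ibsp (-1.67), bone sialoprotein. In CM 12 were lower than in MEF (80.0%, all genes 21.8%), with Tnc, tenascin-C, at -7.75, Thbs1 at -7.25 and the collagen chain Col1a1 at -4.74. The 1 higher was Vtn, vitronectin, at 5.63. Against CM, 8 of the ligands were higher in CiCM (53.3%, all genes 16.5%) and 1 lower (6.67%, all genes 19.0%). Fibroblast markers, which also hold Col1a1, gave 2 higher and 3 lower of 12 in CiCM against MEF and 9 higher and 1 lower in CiCM against CM.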

How the data were processed

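Per the labels' protocols, total RNA was amplified and biotin-labelled with a 3' kit and hybridised to 1-colour Affymetrix arrays. Values deposited by the authors are on a log2 scale, 1 per array for each of 45101 probe sets. The submitters' processing notes name MAS5 as the tool. The trimmed mean of the linear signals (highest and lowest 2% left out) was 500.003 on every array. Genome build, scan dates and detection calls are not given in the sources used here.

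Gene symbols came from the platform annotation in GEO, whose names can be out of date: 34945 probe sets had 1 symbol, 932 several, 9160 none, and 64 were controls. Of 18193 genes, 5634 lay under the filter. Differences were tested with limma 3.58.1 in R 4.3.3 (lmFit, eBayes with a variance trend, 2-sided, no covariates) and checked on simulated data. Alternatives were 32 added to the linear signal, quantile normalization, levelling on 18 hybridisation control probe sets or centring on array medians, no filter or a line at 8.91 (the upper quartile of the table), a gene's mean over its probe sets, a fit of the compared groups alone, eBayes without the trend, no minimum difference, a replicate block, and omission of single arrays.

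The members and lists were chosen with earlier results of these data known. Every member is named. Values on each array are given for members called in CiCM against MEF and for others among the 3 largest differences of their role. Of each other list described by gene, up to 4 called genes per comparison were named, by size. Epcam as a marker, Kcnip2 and Tie1 as ends of a range and Myl7 as an atrial gene were added after their values were seen. So were the cardiac markers that were not called in CiCM against MEF. Python 3.11.15 and matplotlib 3.10.9 drew the figures.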

Additional observations from a re-analysis of the deposited data

Results flagged for a closer look

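Probe sets that the comparisons did not use carried signal that ran against the one used for Itga1 and Itgb1. The second probe set of Itga1 was 2.17 higher in CM than in MEF, without overlap of arrays, where the one used gave -0.32. The third probe set of Itgb1 was 2.41 higher in CiCM and 1.54 higher in CM than in MEF, where the one used gave -0.72 and -2.10.

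Itga6 and Lims2 were called in opposite directions from MEF in CiCM and CM. They were picked for this, so their difference between CiCM and CM follows from the choice and is no further test. Itga6 was -4.22 in CiCM against CM (limma adjusted p = 1.38e-08), with all 3 CiCM arrays under and all 3 CM arrays over those of MEF. The rise of Itga6 in CM against MEF was no longer called after centring (0.91) or levelling (0.47, limma adjusted p = 0.115). Lims2 was -4.08 in the same comparison (limma adjusted p = 7.07e-07), again in 3 of 3 arrays on each side.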

How the results depend on the processing

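The number of members called was 11 between CiCM and MEF, 19 between CM and MEF and 14 between CiCM and CM. Without the minimum difference the first became 23 (10 higher and 13 lower), and without the filter or with the other alternatives the 3 counts stayed within 1.5 times. A stable count could hold other members. With the mean over probe sets the first was again 11, but with 4 higher and 7 lower. Itga9 and Lama5 lost their calls there, and Itga4 and Lamb1 gained one. Leaving out 1 array in turn gave 10 to 12, 17 to 19 and 12 to 15. With a replicate block the counts were 11, 18 and 14, the call lost being Itgb6 in CM against MEF. Same-numbered arrays deviated together with correlations of -0.02 to 0.07, so the numbers are not taken to pair the samples. Centring gave 10, 20 (8 higher, 12 lower) and 17 (11 higher, 6 lower), and levelling on hybridisation controls gave 10, 20 (7 higher, 13 lower) and 17 (13 higher, 4 lower).

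The mean over probe sets turned Itga9 in CM against MEF to -0.078; its 3 probe sets differ in direction. It also turned the uncalled differences of Itga3 (0.68), Itga4 (-0.17) and Itga5 (-0.24) in CiCM against CM. In CM against MEF it turned those of Itga1 (0.92), Itga3 (-0.13), Lama4 (-0.59), Lamc1 (-0.30) and Lims1 (-0.11). In CiCM against MEF it turned that of Itgb1 (0.006). None of these was called after the turn. Members that gained a call between CiCM and CM after both centring and levelling were Itga4 (1.03 and 1.30), Itga5 (1.26 and 1.53), Lamb1 (1.03 and 1.30), Nid1 (1.08 and 1.35) and Parva (1.17 and 1.44), and after levelling alone Itga10 (1.12) and Ilk (1.02). Nid2 gained one in CM against MEF (-1.15 and -1.59), and Itga1 after levelling alone (-1.13). Low signals near the floor of the arrays, as for Lamb3 in MEF or Lama1 in CM, limit the size of differences, and 3 arrays per group limit their precision.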
